A study of Homo sapiens with 6 samples.

Results

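The keratin genes of HCT116 cells are described here in 6 RNA-seq libraries. Rows of the deposited tables were chosen by gene symbol, with earlier results of these data known: KRT7, KRT8, KRT10, KRT15, KRT18, KRT19, KRT20, KRT23 and KRT80. The set was listed as simple epithelial and colonic keratins, although KRT10 and KRT15 are better known from stratified epithelia. Its members are 9 of the 28491 genes of the count table, and all 9 passed the filter on low counts. HCT116 is a human colorectal carcinoma cell line. Its cells received either an RBM47 expression plasmid (RBM47-OE) or a control plasmid (NC), and poly(A) RNA was sequenced 48 h later from 3 libraries of each group. The labels give no further difference between the groups, and both received a plasmid by lipofection. RBM47 is an RNA-binding protein, and the study asked how its overexpression alters the expression and splicing of genes of colorectal cancer cells. A plasmid of this kind acts in the transfected fraction of the cells, so each library may mix transfected and untransfected cells of a single line. Values of 3 libraries are given in the order of replicates 1, 2 and 3.

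Keratins are the intermediate filament proteins of epithelial cells. A filament is built from heterodimers of a type I (acidic) and a type II (basic) keratin, and an unpaired keratin is usually degraded, so the balance between both types is a defining property of the family. KRT8 and KRT18 are the main pair of simple epithelia, and in the intestine KRT19 and KRT20 also pair with KRT8. The filaments attach to desmosomes through plakins, resist mechanical stress and bind signalling and chaperone proteins. KRT7, KRT8 and KRT80 are the type II genes described here, and KRT10, KRT15, KRT18, KRT19, KRT20 and KRT23 are the type I genes.

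KRT8 and KRT18 have many processed pseudogenes, so reads from either gene can also fit elsewhere in the genome. The deposited counts of KRT8 and KRT18 rest on uniquely mapped reads, aligned by the authors with up to 4 mismatches, and the canonical transcript of each keratin was therefore searched against GRCh38 with gene models of GENCODE 44. Over the whole canonical transcript of KRT8, 1064 of 1635 windows of 150 bases (65.1%) had a match elsewhere in the genome within 4 mismatches, and 0 had an exact match elsewhere. For KRT18 these were 367 of 1264 windows (29.0%) within 4 mismatches and 0 exact. The other 7 keratins had no window of this kind. The nearest copy of KRT8, KRT8P3, was 97.2% identical over 1765 aligned bases, and the nearest copies of KRT18 and KRT19, KRT18P11 and KRT19P1, were 95.2% and 91.2% identical. The 15 rows of KRT8 pseudogenes together held 95, 156 and 98 counts in NC and 120, 130 and 102 in RBM47-OE, between 0.076% and 0.123% of the KRT8 count of the same library. The 16 rows of KRT18 pseudogenes held between 8 and 24 counts, at most 0.0618% of KRT18. Reads that fit a gene and a copy equally well are not in these counts, and their number is not given in the sources used here.

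The libraries held between 26792409 and 35477983 counts on genes. RBM47 had an FPKM (fragments per kilobase of gene and of the mapped fragments of a library, scaled by the authors) of 1.91, 2.33 and 1.94 in NC and of 131.3, 130.41 and 127.04 in RBM47-OE, so the overexpression was present in each library with that label. Of 13 colonic epithelial markers, 8 stood at 4 FPKM or more in all 6 libraries, EPCAM, CDH1, CDX2, CLDN3, CLDN4, CLDN7, ESRP1 and ESRP2, while VIL1, CEACAM5, GPA33, LGALS4 and CDH17 were below 0.2 FPKM in all of them. Markers of other cell types were low, with COL1A1 the highest at 1.31 to 1.72 FPKM. FPKM values were present for 3 of 7 fibroblast, 5 of 6 leukocyte and 5 of 5 endothelial markers. Fibroblast markers summed to between 1.34 and 1.78 FPKM, nearly all of it COL1A1, leukocyte markers to between 0.25 and 0.4 FPKM in NC and between 0.13 and 0.18 FPKM in RBM47-OE, and endothelial markers to between 0.11 and 0.22 FPKM. COL3A1, CD3E and CDH5 were at 0.02 FPKM or less in all libraries. The log2 difference of a gene from NC followed the GC content of its exons in the RBM47-OE libraries, with Spearman's rho across 16233 genes of -0.41, -0.59 and -0.67. Each NC library set against the rest of NC gave -0.16, 0.13 and 0.04. These values describe a relation across genes, which are no replicates. A second fit that removes this trend from each library (the GC offset) is therefore given beside each keratin, and whether the trend arose in the cells or in library preparation was not tested. Nothing in the sources states that replicates came from separate cultures, so p-values measure the spread between these libraries only.

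KRT19, KRT8 and KRT18 made up nearly all keratin RNA of HCT116 cells. Together they held between 97.7% and 97.9% of the summed FPKM of the 9 keratins in each library. All 9 together held between 0.66% and 0.744% of the FPKM of all genes. In NC, KRT19 averaged 972 ± 44.6 FPKM (SD, n = 3), KRT8 538 ± 22.9 FPKM and KRT18 364 ± 15.9 FPKM, which placed them at ranks 25, 60 and 89 among 16368 protein-coding genes with FPKM values. The next keratin, KRT10, stood at 22.4 ± 0.648 FPKM. It was followed by KRT15 at 9.91 ± 0.643, KRT7 at 4.44 ± 0.369, KRT23 at 2.90 ± 0.320, KRT80 at 1.08 ± 0.150 and KRT20 at 0.347 ± 0.220 FPKM. In NC no neighbours in this order overlapped between libraries. In RBM47-OE, KRT7 (3.28 to 4.86 FPKM) overlapped KRT23 (3.76 to 4.33 FPKM), and KRT80 (0.63 to 1.1 FPKM) overlapped KRT20 (0.35 to 0.92 FPKM).

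**Figure D1:**
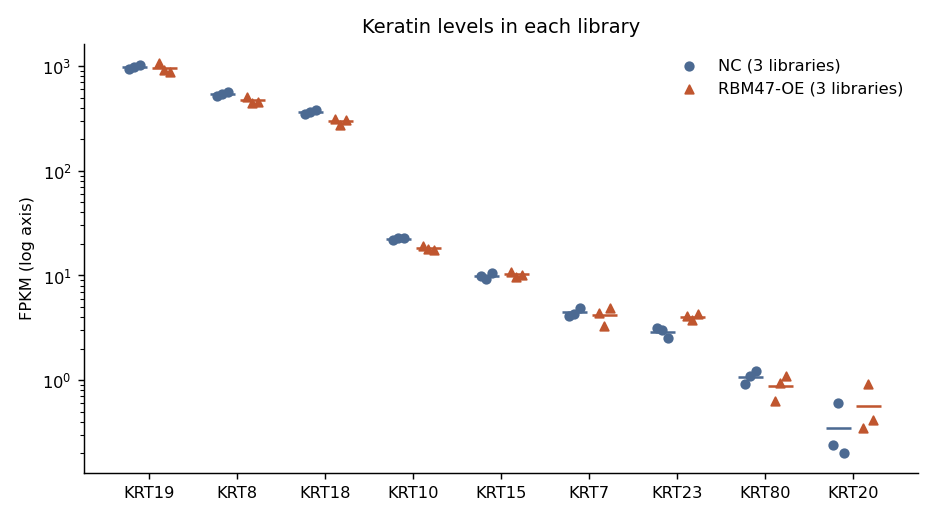
Deposited FPKM (log axis) of the 9 keratins in each library, with NC as circles, RBM47-OE as triangles and the group mean as a bar (3 libraries per group). KRT19, KRT8 and KRT18 lie at 274.04 FPKM or more in all 6 libraries and the other 6 keratins at 22.85 FPKM or less, and the groups are apart for KRT8, KRT18, KRT10 and KRT23.

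The order of the top 2 genes depended on the length used. The deposited FPKM values match a division by the union of all annotated exons, 1.12 to 1.16 times the GENCODE 44 exonic length for each of the 9 keratins. For KRT8 this union is 6881 bases, whereas its canonical transcript is 1784 bases. For KRT19 the lengths are 2336 and 1390 bases, and for KRT18 they are 3069 and 1413 bases. CPM (here counts scaled to the library total alone) per kilobase of the canonical transcript, a scale chosen after seeing the data, averaged 2357 ± 92.6 for KRT8, 1854 ± 78.3 for KRT19 and 898 ± 36.9 for KRT18 in NC (SD, n = 3). On this scale KRT8, the type II partner of both type I genes, stood above KRT19. Which transcripts the cells used cannot be read from counts per gene.

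By edgeR's quasi-likelihood test over 16260 genes, 3 of the 9 keratins were lower in RBM47-OE at an adjusted p under 0.05, KRT8, KRT18 and KRT10. Of all genes tested, 16.9% were lower by the same rule. A single keratin, KRT23, was higher, against 19.1% of all genes. With the GC offset, KRT10 was the only keratin called lower (8.46% of all genes) and KRT23 the only one called higher (6.0% of all genes). By the study's thresholds, an unadjusted p under 0.01 and a fold change over 1.5, 0 keratins passed with edgeR or with DESeq2, against 2.38% of all genes with edgeR. At an unadjusted p under 0.05, both tools gave 1 keratin higher and 3 lower, against 23% and 21.3% of all genes with edgeR and 22.3% and 20.0% with DESeq2. CPM scaled in addition by edgeR's normalization factors (TMM) did not overlap between groups for 4 of the 9 keratins and for 46.5% of all genes. The median log2 fold change was -0.16 over the 9 keratins and 0.0 over all genes tested, and with the GC offset it was 0.02 and -0.001. The counts of keratins are read beside these shares, and nothing is called particular to the family from them. Over all genes the calls were 3100 higher and 2740 lower, and scaling by library totals alone made them 3693 and 1889, while the keratin calls stayed at 1 and 3. In bulk RNA, a smaller number of expressing cells and less RNA per cell cannot be told apart.

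**Figure D2:**
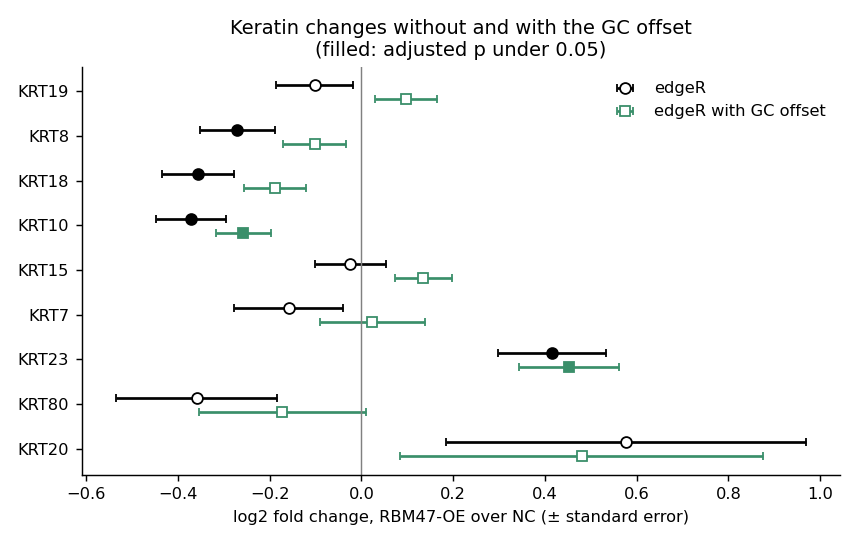
Log2 fold change of each keratin (RBM47-OE over NC) with its standard error, from edgeR without the GC offset (black circles) and with it (green squares), filled where the adjusted p was under 0.05. KRT10 and KRT23 are filled in both fits, and KRT8 and KRT18 only without the offset.

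KRT8 (ENSG00000170421), the main type II keratin of simple epithelia, occupies 52897187 to 52949954 of chromosome 12 (GRCh38, minus strand), with 8 exons in its canonical transcript. It stood at 516.83, 535.97 and 562.39 FPKM in NC and at 505.42, 443.41 and 456.36 FPKM in RBM47-OE. Each RBM47-OE library was below each NC library, although RBM47-OE replicate 1 and NC replicate 1 were close. The counts behind these values were 109010, 147565 and 128977 in NC and 129637, 105638 and 100846 in RBM47-OE. The mean FPKM went from 538 ± 22.9 to 468 ± 32.7 (SD, n = 3), 0.87 times the NC mean, with an exact two-sided permutation p of 0.10, the smallest that 3 against 3 libraries allow. KRT18, KRT10 and KRT23 reached the same p in this exact test. The edgeR log2 fold change was -0.27 (SE 0.0821, adjusted p = 0.012). This call was lost in 8 of 20 alternative settings. Among these, the GC offset gave a log2 fold change of -0.10 (SE 0.0692, adjusted p = 0.37). With limma on log2(FPKM + 1) the value was -0.20 (adjusted p = 0.061). In edgeR it was -0.28 without NC replicate 2 (adjusted p = 0.064) and -0.24 without NC replicate 3 (adjusted p = 0.080).

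KRT18 (ENSG00000111057), the type I partner of KRT8, lies beside it on the plus strand of chromosome 12 from 52948871 to 52952906, with 7 exons. Both gene models overlap on opposite strands over 1084 bases, from 52948871 to 52949954. The libraries were made with a directional kit, but whether strand was used in counting is not given in the sources used here, and without it reads in this overlap cannot be assigned to either gene. KRT18 stood at 350.33, 360.37 and 381.41 FPKM in NC and at 314.51, 274.04 and 306.54 FPKM in RBM47-OE. The groups did not overlap, and RBM47-OE replicate 2 was the lowest library for KRT18 as it was for KRT8. The mean fell by 18.0%, from 364 ± 15.9 to 298 ± 21.4 FPKM (SD, n = 3). The edgeR log2 fold change was -0.36 (SE 0.0785, adjusted p = 0.0011). Under the GC offset it was -0.19 (SE 0.0671, adjusted p = 0.063), and by limma on log2(FPKM + 1) without a filter -0.29 (adjusted p = 0.061), past the threshold in neither.

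KRT19 (ENSG00000171345), the smallest type I keratin, which lacks the usual tail domain, lies on the minus strand of chromosome 17 from 41523617 to 41528308, with 6 exons. It stood at 927.57, 970.61 and 1016.83 FPKM in NC and at 1056.65, 922.89 and 870.16 FPKM in RBM47-OE. The highest and the lowest of the 6 libraries were both RBM47-OE, and the groups overlapped. The means were 972 ± 44.6 and 950 ± 96.1 FPKM (SD, n = 3), and the edgeR log2 fold change was -0.10 (SE 0.0840, adjusted p = 0.37). Under the GC offset the value changed sign to 0.10 (SE 0.0670, adjusted p = 0.38). KRT19 has the highest exonic GC content of the 9 keratins, 60.0%, against 55.9% for KRT8 and 55.7% for KRT18. Without RBM47-OE replicate 1, the library with the highest KRT19 level, the log2 fold change of KRT19 was -0.20 and passed (adjusted p = 0.013 in edgeR). It was -0.04 without RBM47-OE replicate 3 (adjusted p = 0.76) and -0.06 without RBM47-OE replicate 2 (adjusted p = 0.60).

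Within a library the balance between these 3 genes is read from ratios of deposited FPKM, whose size depends on the gene lengths used. The ratio of KRT8 to KRT18, the type II and type I genes of the main pair, was 1.475, 1.487 and 1.475 in NC and 1.607, 1.618 and 1.489 in RBM47-OE. The NC libraries lay within a narrow range, replicates 1 and 2 of RBM47-OE lay above it, and RBM47-OE replicate 3 lay just above the highest NC library. The means were 1.48 ± 0.00717 and 1.57 ± 0.0717 (SD, n = 3), a log2 difference of 0.09 with an exact two-sided permutation p of 0.10, the smallest this design can give. Ratios to KRT19 were chosen after seeing the data. KRT8 to KRT19 was 0.557, 0.552 and 0.553 in NC and 0.478, 0.481 and 0.525 in RBM47-OE. KRT18 to KRT19 was 0.378, 0.371 and 0.375 in NC and 0.298, 0.297 and 0.352 in RBM47-OE. Both ratios were lower in each RBM47-OE library than in each NC library. Each had the same exact permutation p of 0.10, which cannot count as a test of ratios chosen in this way. RBM47-OE replicate 3 was the nearest to NC in all 3 ratios, which are built from the same 3 genes. That library had the lowest KRT19 level of all 6, and RBM47-OE replicate 1 the highest. With canonical transcript lengths, KRT8 to KRT18 was 2.62, 2.641 and 2.618 in NC and 2.854, 2.873 and 2.644 in RBM47-OE. KRT8 to KRT19 was then 1.279, 1.267 and 1.269 in NC and 1.098, 1.103 and 1.204 in RBM47-OE, so KRT8 stood above KRT19.

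The summed level of the type II genes over that of the type I genes, over the 9 keratins, was 0.398, 0.396 and 0.396 in NC and 0.363, 0.364 and 0.382 in RBM47-OE. All RBM47-OE libraries were below all NC libraries, and no test was made of a sum over the 9 genes. The deposited FPKM thus gave less type II than type I keratin RNA in all 6 libraries. With canonical transcript lengths the ratio was 0.842, 0.840 and 0.839 in NC and 0.778, 0.780 and 0.811 in RBM47-OE, nearer to equal amounts of both types, and with the same order of the libraries by group. The share of KRT19 in the summed FPKM of the 9 keratins was between 50.6% and 50.9% in NC and was 55.2%, 55.0% and 52.1% in RBM47-OE, and that of KRT18 was between 18.9% and 19.1% in NC and was 16.4%, 16.3% and 18.3% in RBM47-OE.

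**Figure D3:**
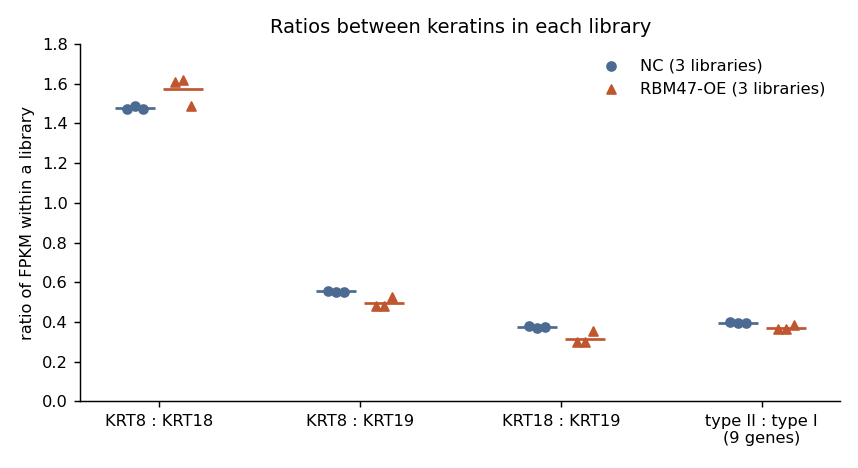
Ratio of deposited FPKM between keratins within each library (axis from 0). NC is drawn as circles, RBM47-OE as triangles and the group mean as a bar (3 libraries per group). KRT8 to KRT18 is between 1.475 and 1.487 in NC and between 1.489 and 1.618 in RBM47-OE, and the other 3 ratios are lower in each RBM47-OE library than in each NC library.

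KRT10 (ENSG00000186395), a type I keratin best known from the suprabasal epidermis, where it pairs with KRT1, lies on the minus strand of chromosome 17 from 40818117 to 40822614, with 8 exons. It stood at 21.66, 22.7 and 22.85 FPKM in NC and at 19.05, 18.04 and 17.48 FPKM in RBM47-OE. The groups were well apart, since the gap between the lowest NC and the highest RBM47-OE library exceeded the range within either group. The counts were 1436, 1965 and 1647 in NC and 1536, 1351 and 1214 in RBM47-OE. The mean fell by 18.8%, from 22.4 ± 0.648 to 18.2 ± 0.796 FPKM (SD, n = 3). The edgeR log2 fold change was -0.37 (SE 0.0765, adjusted p = 6.7e-04), and with the GC offset -0.26 (SE 0.0601, adjusted p = 0.0063). KRT10 was called lower in each of the 20 alternative settings, at values from -0.42 to -0.26. Its gene model overlaps KRT10-AS1 on the plus strand, listed in the tables as TMEM99, over 3514 bases from 40819101 to 40822614. TMEM99 held 726, 935 and 701 counts in NC and 753, 675 and 752 in RBM47-OE, and its log2 fold change was -0.18 (adjusted p = 0.15 in edgeR), or -0.45 with the GC offset (adjusted p = 0.0012). Without strand in the counting, reads of both genes in this overlap cannot be told apart.

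KRT23 (ENSG00000108244), a type I keratin outside the main simple epithelial set, lies on the minus strand of chromosome 17 from 40922700 to 40937646, with 9 exons. It was the only keratin called higher in RBM47-OE. Its FPKM was 3.12, 3.04 and 2.53 in NC and 4.07, 3.76 and 4.33 in RBM47-OE, without overlap. The counts were 278, 354 and 245 in NC and 442, 379 and 405 in RBM47-OE. The mean rose by 39.9%, from 2.90 ± 0.320 to 4.05 ± 0.285 FPKM (SD, n = 3). The edgeR log2 fold change was 0.42 (SE 0.118, adjusted p = 0.0074), and 0.45 with the GC offset (SE 0.109, adjusted p = 0.0075). KRT23 has a lower exonic GC content than most of the others, 48.9%. Without NC replicate 3, the library with its lowest level, the log2 fold change was 0.33 and no longer passed (adjusted p = 0.071 in edgeR).

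KRT15 (ENSG00000171346), a keratin of the basal layer of stratified epithelia, lies on the minus strand of chromosome 17 from 41513745 to 41522529. It stood at 9.84, 9.31 and 10.59 FPKM in NC and at 10.85, 9.71 and 10.14 FPKM in RBM47-OE. The groups overlapped over most of their ranges. Its log2 fold change was -0.02 (SE 0.0775, adjusted p = 0.84 in edgeR), and 0.14 with the GC offset (SE 0.0623, adjusted p = 0.16). The sign of this value differed between settings, and no setting called it.

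KRT7 (ENSG00000135480), a type II keratin of ducts and other simple epithelia that pathologists read together with KRT20, lies on the plus strand of chromosome 12 from 52232520 to 52252186. It stood at 4.14, 4.32 and 4.85 FPKM in NC and at 4.38, 3.28 and 4.86 FPKM in RBM47-OE. RBM47-OE replicate 2 was low and the other two RBM47-OE libraries were within or just above the NC range. The log2 fold change was -0.16 (SE 0.119, adjusted p = 0.32 in edgeR), 0.02 with the GC offset (SE 0.114, adjusted p = 0.92) and 0.003 without RBM47-OE replicate 2. KRT7-AS, an antisense transcript that overlaps KRT7 over 2401 bases, held between 13 and 23 counts per library. It is named here after its values were seen, because the rule for neighbours required a number after AS.

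KRT80 (ENSG00000167767), a type II keratin of many epithelia, lies on the minus strand of chromosome 12 from 52168996 to 52192014. It stood at 0.92, 1.09 and 1.22 FPKM in NC and at 0.63, 0.94 and 1.1 FPKM in RBM47-OE. RBM47-OE replicate 1 was below all other libraries, and the other two lay within the NC range. The log2 fold change was -0.36 (SE 0.175, adjusted p = 0.11 in edgeR), the same size as that of KRT18 with a larger standard error, and -0.17 with the GC offset (SE 0.182, adjusted p = 0.59). Without RBM47-OE replicate 3 the log2 fold change was -0.54 and passed (adjusted p = 0.033 in edgeR), whereas without RBM47-OE replicate 1 it was -0.16 (adjusted p = 0.45).

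KRT20 (ENSG00000171431), the type I keratin of differentiated intestinal and gastric epithelium, lies on the minus strand of chromosome 17 from 40875889 to 40885242. It held 14, 46 and 13 counts in NC and 25, 61 and 26 in RBM47-OE, which gave 0.24, 0.6 and 0.2 FPKM and 0.35, 0.92 and 0.42 FPKM. Replicate 2 of each group was well above the other replicates of that group, and the groups overlapped. The log2 fold change was 0.58 (SE 0.392, adjusted p = 0.27 in edgeR), and 0.48 with the GC offset (SE 0.396, adjusted p = 0.47). With single libraries left out, the value ran from 0.06 without RBM47-OE replicate 2 (adjusted p = 0.94 in edgeR) to 1.27 without NC replicate 2, which passed (adjusted p = 0.040), and it was 0.31 without NC replicate 3 (adjusted p = 0.62). At counts this low, a change of the size seen in KRT8 or KRT18 was not detectable.

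**Figure D4:**
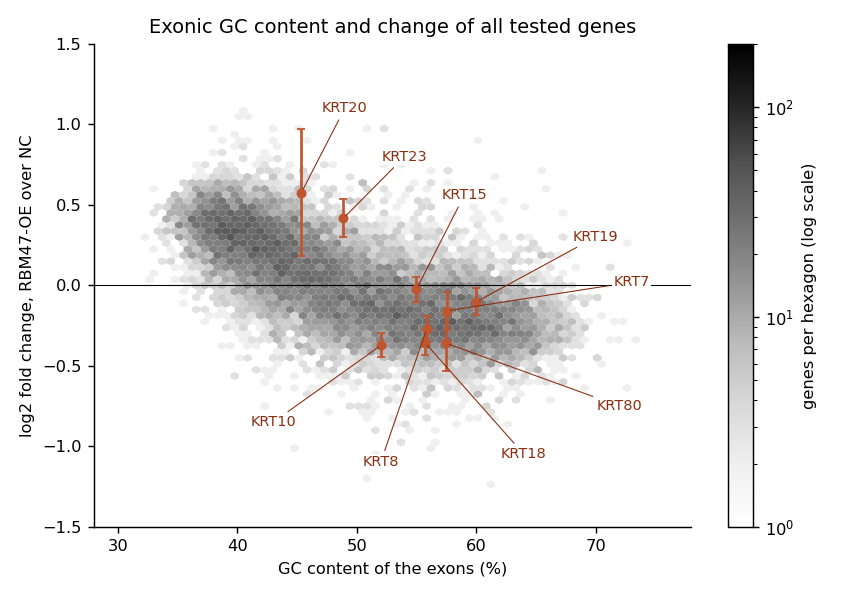
Log2 fold change (RBM47-OE over NC, edgeR without the GC offset) against the GC content of the exons, in percent. Grey hexagons count all tested genes (log scale), orange points with standard error bars are the 9 keratins, and genes beyond the axis range are not drawn. KRT10, at 52.1% GC, lies below most genes of its GC content, while KRT23, at 48.9%, and KRT20, at 45.4% and with the widest error bar, lie above most.

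Among the remaining keratins, 27 of the 45 listed genes had a row, and 18 of these exceeded 3 counts in some library. Summed over the list they gave between 4.07 and 5.73 FPKM per library, below KRT15 alone. The filter on low counts left 7, of which 0 were called by edgeR or DESeq2, while 2 were higher and 0 lower at an unadjusted p under 0.05 in edgeR, against 23% and 21.3% of all genes. These were KRT81 and KRT86. KRT81 was called higher once the GC offset was applied, as were 6.0% of all genes. The most abundant were KRT32, KRT81, KRT13, KRT16 and KRT6A, keratins of hair, of stratified epithelia and of wounded or activated epidermis. KRT81, a type II hair keratin, stood at 0.83, 0.82 and 0.54 FPKM in NC and at 0.92, 1.12 and 1.32 FPKM in RBM47-OE, without overlap. Its log2 fold change was 0.54 (SE 0.24, adjusted p = 0.075 in edgeR), and 0.76 with the GC offset (adjusted p = 0.035). KRT86, another hair keratin, is named after its values were seen. It held 3, 8 and 11 counts in NC and 16, 18 and 17 in RBM47-OE, without overlap, and its log2 fold change was 1.14 (SE 0.47, adjusted p = 0.059 in edgeR), or 1.35 with the GC offset (adjusted p = 0.052). KRT13 stood at 0.65, 0.83 and 1.14 FPKM in NC and at 0.61, 0.87 and 0.74 FPKM in RBM47-OE, with a log2 fold change of -0.32 (adjusted p = 0.26 in edgeR). KRT32, KRT16 and KRT6A had log2 fold changes of 0.18, 0.25 and 0.59, with adjusted p-values of 0.50, 0.56 and 0.21 in edgeR. Of 37 keratin pseudogene rows, 14 exceeded 3 counts in some library and 3 were tested, KRT8P12, KRT8P33 and KRT8P3, with log2 fold changes of -0.29, 0.002 and 0.12 and adjusted p-values of 0.42, 1.0 and 0.84 in edgeR.

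Other intermediate filament genes were dominated by lamins, the filaments of the nuclear envelope. Among 9 tested genes edgeR called 2 higher and 2 lower, against 19.1% and 16.9% of all genes, and their median log2 fold change was -0.02 against 0.0 over all genes. LMNA fell from 120.0 ± 2.63 to 99.0 ± 6.86 FPKM (log2 fold change -0.35, SE 0.076, adjusted p = 0.0011 in edgeR), and LMNB2 from 120.0 ± 2.87 to 103 ± 3.00 FPKM (-0.29, SE 0.072, adjusted p = 0.0028; SD, n = 3). LMNB1 had a log2 fold change of -0.02 (adjusted p = 0.84). PRPH, the neuronal filament protein peripherin, rose by 0.43 (adjusted p = 0.020), as did SYNM, synemin, by 0.38 (adjusted p = 0.024), which is named after its values were seen. After the GC offset edgeR called 3 higher and 0 lower, against 6.0% and 8.46% of all genes. At an unadjusted p under 0.05 it gave 5 higher and 1 lower, against 12.9% and 15% of all genes. With the offset LMNA was at -0.16 (adjusted p = 0.085) and LMNB2 at -0.07 (adjusted p = 0.47).

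Desmosomal and plakin genes, whose proteins anchor keratin filaments at cell contacts, had 15 tested members. Of these 4 rose and 3 fell, against 19.1% and 16.9% of all genes, and the median log2 fold change was 0.10. DSG2, the desmosomal cadherin of simple epithelia, rose from 21.5 ± 0.927 to 28.5 ± 2.94 FPKM (SD, n = 3), with a log2 fold change of 0.34 (adjusted p = 0.0012 in edgeR). DSC2, its partner cadherin, rose by 0.32 (adjusted p = 0.0037), and PERP, a desmosomal membrane protein, by 0.20 (adjusted p = 0.021). DST, a plakin named after its values were seen, rose by 0.25 (adjusted p = 0.0082). JUP, or plakoglobin, had a log2 fold change of -0.25 (adjusted p = 0.010), PLEC, or plectin, of -0.27 (adjusted p = 0.0076) and EPPK1, or epiplakin, which binds keratins of simple epithelia, of -0.30 (adjusted p = 0.0048). After the GC offset 0 of the 15 were called by edgeR, against 6.0% of all genes higher and 8.46% lower. At an unadjusted p under 0.05, 2 were higher and 0 lower, against 12.9% and 15% of all genes. DESeq2 without that offset gave 5 higher and 3 lower, against 20.8% and 17.9% of all genes.

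Proteins that bind or modify keratins were represented by 24 tested genes, of which 5 rose and 6 fell, beside 19.1% higher and 16.9% lower over all genes, and their median log2 fold change was -0.02. SFN, the epithelial 14-3-3 protein sigma, stood at 311.4, 293.89 and 316.69 FPKM in NC and at 266.55, 221.17 and 244.23 FPKM in RBM47-OE, without overlap. Its log2 fold change was -0.40 (SE 0.079, adjusted p = 4.5e-04 in edgeR), and -0.18 with the GC offset (adjusted p = 0.061). HSPB1, a small heat shock protein that associates with keratin filaments, had a log2 fold change of -0.38 (adjusted p = 6.9e-04), and -0.16 with the GC offset (adjusted p = 0.081). PPP2R1A, a scaffold subunit of protein phosphatase 2A, was lower in both fits (-0.40, adjusted p = 2.2e-04, and -0.29, adjusted p = 0.0023). PIAS1, a SUMO ligase, was higher in both (0.41, adjusted p = 6.6e-04, and 0.22, adjusted p = 0.030). HSPA8, a constitutive chaperone, stood at 214.97, 209.83 and 198.95 FPKM in NC and at 198.72, 173.88 and 265.0 FPKM in RBM47-OE, with a log2 fold change of -0.04 (adjusted p = 0.81). Named after their values were seen, YWHAZ, CSNK1A1, PNN and PTPN11 also rose, by 0.25, 0.30, 0.27 and 0.34 on the log2 scale, and FAM83H, MAPKAPK2 and YWHAH also had lower levels, at -0.34, -0.24 and -0.20 (adjusted p = 0.0014, 0.010 and 0.028 in edgeR). With the GC offset, YWHAZ, CSNK1A1 and PNN were at 0.12, 0.005 and -0.04 and FAM83H, MAPKAPK2 and YWHAH at -0.12, -0.045 and -0.08, and none of these 6 was called. The 4 calls of that fit were PIAS1, PTPN11 (0.18, adjusted p = 0.039) and TRADD upward and PPP2R1A downward. Over all genes it called 6.0% higher and 8.46% lower. TRADD, an adaptor of tumour necrosis factor receptor signalling, had not been called without the offset (0.007, adjusted p = 0.96, and 0.23, adjusted p = 0.025, with it) and is named after its values were seen.

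Of 19 tested transcription factors with known roles at keratin or epithelial genes, 2 rose and 3 fell, beside 19.1% higher and 16.9% lower over all genes. Their median log2 fold change was -0.04. EHF, an epithelial ETS factor, rose from 12.7 ± 0.712 to 19.0 ± 2.73 FPKM (SD, n = 3), with a log2 fold change of 0.51 (adjusted p = 8.8e-05 in edgeR). FOSL1 and JUN, subunits of AP-1, fell by 0.47 (adjusted p = 6.1e-05) and by 0.54 (adjusted p = 2.0e-04) on the log2 scale. After the GC offset EHF, FOSL1 and JUN were still called, at 0.26, -0.27 and -0.38. SP1 (0.20, adjusted p = 0.021) and CEBPA (-0.34, adjusted p = 0.0085) are named after their values were seen, and neither was called with the GC offset. JUNB and CEBPB, the most abundant factors beside FOSL1, had log2 fold changes of -0.12 (adjusted p = 0.33) and 0.07 (adjusted p = 0.60). The offset gave 3 factors higher and 2 lower, against 6.0% and 8.46% of all genes. KLF4 and CEBPB were among the higher ones, and KLF4 is named after its values were seen.

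**Figure D5:**
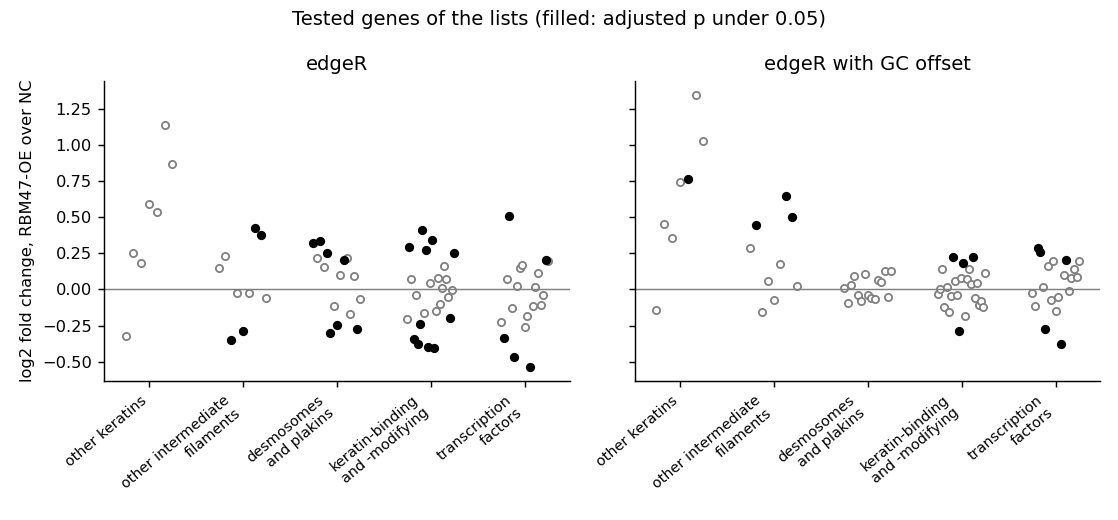
Log2 fold change (RBM47-OE over NC) of each tested gene of 5 gene lists, from edgeR without the GC offset (left) and with it (right), as 1 point per gene, filled where the adjusted p was under 0.05. Desmosomal and plakin genes have 7 filled points on the left and 0 on the right, and transcription factors have 5 in both panels.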

How the data were processed

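Poly(A) RNA of HCT116 cells was sequenced in 3 NC and 3 RBM47-OE libraries, grouped by the labels, and all 6 were used. The authors trimmed the reads with FASTX-Toolkit, aligned them with HISAT2 to GRCh38 and kept unique alignments for counting per gene. The deposited counts are not normalized. For the deposited FPKM, the authors scaled the fragments of a gene by its length and by the library's mapped fragments. The counter, annotation release and strand setting are not given in the sources used here. The labels and the methods name different plasmids, culture media and library kits.

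The keratins and gene lists were chosen with earlier results of these data known. Counts were tested with edgeR 4.0.16 (R 4.3.3), using filterByExpr (minimum count 10, total 15), TMM factors and condition as the only term, and p-values were adjusted over all genes by the Benjamini-Hochberg method. Standard errors are the size of the log2 fold change over the square root of the F statistic. The GC offset is a loess curve (span 0.3) on exonic GC content of GENCODE 44 models, matched by gene identifier, and the length offset is made likewise. FPKM and ratios of FPKM were compared with exact two-sided permutation tests over libraries. Alternatives were DESeq2 1.42.0, limma 3.58.1 on log2 FPKM (pseudocount 1 or 0.1, genes averaging 0.1 FPKM or more, or all genes), beside other size factors, filters, a replicate block and each library left out. Canonical transcripts were searched against GRCh38 with BLAST for copies. The fits were also run on simulated counts without a GC trend, so that run could not check how well the GC offset removes one. All 9 keratins are named. From each list without keratins the 3 tested genes with the highest mean FPKM and the 3 with the smallest adjusted p are named, with the 5 most abundant other keratins, the 3 pseudogenes with most counts and transcripts neighbouring a keratin. Same-numbered libraries of both groups did not deviate together, so numbers were not treated as pairs. Sequences of the keratin genes are not reported here.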

Additional observations from a re-analysis of the deposited data

How the results depend on the processing

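Over 180 log2 fold changes of the 9 keratins in 20 alternative settings, 148 kept their direction and their side of the threshold and 32 did not. KRT10 kept both in all 20, KRT23 in 19, KRT18 in 17 and KRT8 in 12. The keratins called lower were 1 with the GC offset, 1 with the GC offset and replicate block, 1 by limma on log2(FPKM + 1) without a filter and 0 by the study's thresholds, which also gave 0 higher. Leaving out each library gave between 2 and 4 lower and between 0 (without NC replicate 3) and 2 higher (without NC replicate 2). Over all genes, higher and lower calls were 975 and 1375 with the GC offset. With the GC offset and replicate block they were 1023 and 1427, and by limma without a filter 1410 and 908. The study's thresholds applied to the edgeR fit gave 245 and 142, which are not the study's own counts from DESeq2. The GC offset without RBM47-OE replicate 1, a setting chosen after seeing the data, gave 1113 and 1568. Lower calls were 1586 and 1599 by limma on log2(FPKM + 1) and log2(FPKM + 0.1), between 1675 (without NC replicate 2) and 3508 with each library left out, while higher calls ran from 2090 to 3864. Genes of the other lists called lower were 4 with the GC offset, and those called higher ran from 9 (without NC replicate 2) to 22 with each library left out. The cause of these changes was not tested.

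Signs turned for 4 keratins that were not called. With the GC offset, the GC offset and replicate block, and the GC offset without RBM47-OE replicate 1, KRT7 was at 0.024, 0.009 and 0.010, KRT15 at 0.135, 0.135 and 0.108 and KRT19 at 0.097, 0.096 and 0.046. The last of these put KRT80 at 0.050. KRT15 was also at 0.037 with library totals and at 0.042, 0.046 and 0.042 by limma. With each library left out, KRT7 ran from -0.28 to 0.003 and KRT15 from -0.078 to 0.030.

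Replicate numbers were not shown to pair the libraries: same-numbered NC and RBM47-OE libraries had correlations of their deviations from the group means of -0.06, -0.015 and -0.016. With the replicate block, 1 keratin was higher and 3 lower, and 2957 and 2510 of all genes. With 3 libraries a group, depth limits KRT20 most, at 13 to 61 counts per library.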

Other observations

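KRT20 is used as a marker of differentiated intestinal epithelium. Of 12 markers of differentiated colonocytes, goblet and enteroendocrine cells, 4 had a row in the tables. SI, the brush border enzyme sucrase-isomaltase, AQP8, a water channel of colonocytes, and MUC2, the main mucin of goblet cells, were at 0.05 FPKM or less in all 6 libraries. CA2, a carbonic anhydrase of colonocytes and many other cells, stood at 16.97, 18.16 and 15.68 FPKM in NC and at 16.53, 15.27 and 19.47 FPKM in RBM47-OE. Its groups overlapped, with a log2 fold change of -0.06 (adjusted p = 0.66 in edgeR), and with the GC offset the value was -0.33 (adjusted p = 0.011). EPCAM, the epithelial adhesion molecule, rose from 76.2 ± 1.75 to 95.8 ± 8.30 FPKM (SD, n = 3), with a log2 fold change of 0.26 (adjusted p = 0.0070) and of 0.27 with the GC offset (adjusted p = 0.0055). CLDN7, a tight junction claudin, and ESRP2, an epithelial splicing regulator, had log2 fold changes of -0.27 (adjusted p = 0.0095) and -0.34 (adjusted p = 0.0039), and of -0.07 and -0.16 with the GC offset (adjusted p = 0.52 and 0.20). ESRP1, named after its values were seen, rose by 0.19 (adjusted p = 0.031), or by 0.04 with the GC offset (adjusted p = 0.68).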
